A study of Mus musculus with 6 samples.

Results

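The T, B and natural killer (NK) cell markers are 9 genes whose products define the lymphocytes of a tissue: Cd3d, Cd3e, Cd3g, Cd2 and Cd8a for T cells, Cd79a and Cd79b for B cells, and Nkg7 and Gzma for cytotoxic cells. They were chosen by name, and their probes were found through the RefSeq accession that each array probe carries. Of the 9 genes, 8 had a probe, 1 each, among 13971 genes named on the array, and no probe was matched to Cd8a, which is not analysed here. The tissue was whole liver of C57BL/6 mice aged 14 months. There were 3 wild-type livers (replicates 1, 2 and 4) and 3 livers of mice with a human c-Src transgene under the mouse metallothionein promoter (replicates 1, 3 and 4), called Src-transgenic here. Total RNA was amplified to biotin-labelled cRNA and read on 1-colour arrays. The design text says that zinc could induce the transgene but was usually not needed, and the labels do not say whether any of these mice received it. Livers of the same line were scored for tumours at 20 months, when 15% of transgenic mice had them, and nothing states whether the pieces sampled at 14 months held tumour. Arrays of wild-type sample 3 and transgenic sample 2 were left out by the study for low signal.

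A T cell recognises antigen through a receptor that has almost no signalling tail of its own, so the CD3 delta, epsilon and gamma chains, which assemble with it, carry the tyrosine motifs that Src family kinases phosphorylate. CD79A and CD79B do the same for the B cell receptor. NK cells and cytotoxic T cells kill through granules, of which granzyme A is a protease and NKG7 a membrane protein. The liver is rich in NK and other innate-like lymphocytes that lie in its sinusoids, yet these are few beside hepatocytes, so their transcripts are dilute in whole-liver RNA.

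Before normalization all transgenic arrays were brighter, with median probe signals of 94.8 to 117 against 53.8 to 93.4 for wild-type. All values below are log2 signals after quantile normalization unless called raw. A spot is called above background when its raw signal exceeds a threshold set on the control spots of its array. Some spots lay in areas of an array where all neighbours were bright or dim, and local correction subtracts the neighbours' median deviation from each spot. The Src probe, used as a check of the labels, was higher by 1.79 ± 0.51 (SE, log2) in transgenic livers, on all 3 arrays, with a limma adjusted p of 0.69. Whether this probe for mouse Src reads the human transcript is not known. The endogenous Mt1 and Mt2 genes were higher by 3.71 ± 0.53 and 4.88 ± 0.44 (SE), on all 3 arrays. Transgenic replicate 4 stood apart from the other 5 arrays: Ddx3y, Eif2s3y and Uty, all on the Y chromosome, were above background on those 5 and not on it, and its Kupffer and macrophage markers were high (below). The markers that rest on transgenic replicate 4 are given with and without it.

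Fitted with limma over 34175 features, none of the 8 lymphocyte markers passed (adjusted p of 0.69 to 0.91), and neither did any other feature, 0% of those tested. With no adjustment, 931 features were lower in transgenic livers at a p under 0.05 (2.72%) and 1493 were higher (4.37%). Among the 8 markers, 2 were lower at that level, Cd3g and Nkg7, and none was higher. The log2 difference was below 0 for 6 of the 8 markers, against 48.3% of all features, and their median difference was -0.31 against 0.02 over all features. Among the 6 markers above background on all 6 arrays, 5 were below 0 against 49.1% of such features. All 3 transgenic arrays lay below all 3 wild-type arrays for 2 markers, against 5.9% of all features, and above them for 1 marker, against 10.1%. These counts describe 8 genes, and the median moved to -0.15 in a fit with the labels' replicate number as a block. That fit compares replicates 1 and 4 only, the numbers found in both groups. In whole tissue, fewer lymphocytes and less RNA per lymphocyte cannot be told apart.

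**Figure D1:**
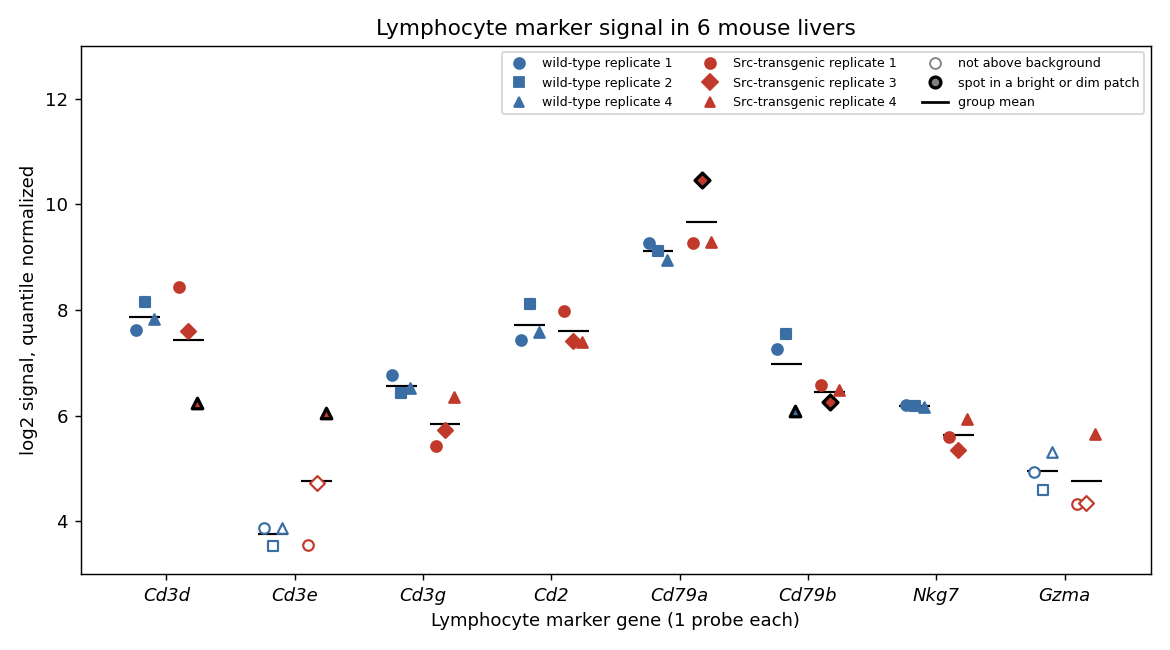
Log2 signal after quantile normalization (vertical axis) of the 8 markers with a probe, 1 probe each (horizontal axis), with 1 point per liver, wild-type in blue and Src-transgenic in red, and a bar at each group mean. Open symbols are not above background, and black outlines mark spots in a bright or dim area of the array. Cd3g and Nkg7 are the 2 genes whose red points all lie under the blue ones, and the wild-type points of Nkg7 span only 0.035.

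The 3 CD3 genes lie side by side on chromosome 9, and the RefSeq table (GRCm38.p6) lists 0 genes that start between Cd3g and Cd3d and 0 between Cd3d and Cd3e. Cd3g and Cd3d are read in opposite directions from neighbouring starts. The values of these neighbours differed in pattern, but whether the genes differ from each other was not tested. Cd3e was above background on 1 array only. The 95% limma interval of Cd3d, -1.78 to 0.91, includes the Cd3g difference of -0.74. Without transgenic replicate 4, the Cd3d difference was 0.16. Cd3g and Nkg7 were the markers with all transgenic livers below all wild-type livers. For the CD3 genes and Nkg7, the 250 bases before the start are shown, 5′ to 3′ on the gene's own strand. Capitals mark the motifs found, on either strand: the E-box CAGGTG, the ETS core AGGAAG, the RUNX motif TGTGGT and the T-box half-site AGGTGTGA. The first is bound by E proteins of lymphocytes, and the last by T-bet and Eomes of NK and cytotoxic cells. The sequences are RefSeq's, at chr9:44980432-44980681 (minus strand), chr9:44981536-44981785 (plus), chr9:45009612-45009861 (minus) and chr7:43436888-43437137 (plus).
Cd3g: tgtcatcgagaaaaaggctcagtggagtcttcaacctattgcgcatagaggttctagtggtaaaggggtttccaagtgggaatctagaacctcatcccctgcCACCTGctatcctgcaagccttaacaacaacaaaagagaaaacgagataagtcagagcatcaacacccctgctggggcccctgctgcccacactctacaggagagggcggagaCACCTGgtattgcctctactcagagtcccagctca
Cd3d: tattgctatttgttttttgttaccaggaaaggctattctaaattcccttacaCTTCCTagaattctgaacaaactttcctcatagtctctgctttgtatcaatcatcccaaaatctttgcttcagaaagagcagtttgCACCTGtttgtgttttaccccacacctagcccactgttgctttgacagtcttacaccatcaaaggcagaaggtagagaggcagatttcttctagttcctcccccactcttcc
Cd3e: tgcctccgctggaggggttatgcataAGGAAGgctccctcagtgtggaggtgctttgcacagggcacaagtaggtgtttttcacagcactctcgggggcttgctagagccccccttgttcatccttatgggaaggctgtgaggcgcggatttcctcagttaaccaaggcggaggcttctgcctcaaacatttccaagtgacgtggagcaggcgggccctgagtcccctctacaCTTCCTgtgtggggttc
Nkg7: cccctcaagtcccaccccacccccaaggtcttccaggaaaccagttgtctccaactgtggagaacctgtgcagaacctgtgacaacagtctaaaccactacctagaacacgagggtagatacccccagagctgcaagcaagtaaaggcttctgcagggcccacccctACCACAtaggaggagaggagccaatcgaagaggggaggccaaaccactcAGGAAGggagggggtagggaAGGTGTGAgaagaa

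Counted back from the start at -1, the Cd3g window holds the E-box at -148 to -143 and at -35 to -30, and the Cd3d window holds it at -112 to -107 with an ETS core at -198 to -193. The Cd3e window has no E-box and an ETS core at -224 to -219 and at -17 to -12. The Nkg7 window holds the T-box half-site at -14 to -7, an ETS core at -34 to -29 and a RUNX motif at -83 to -78. Over the 7 of 9 markers in the promoter table, which lacks Cd2 and Cd79b, 4 held an E-box, 4 an ETS core, 2 a RUNX motif and 1 the T-box half-site. Of 32851 mouse promoter windows of the same length, 17.2%, 29.5%, 14% and 1.12% held them. The TATA motif TATAAA was in 0 of the 7 windows and in 12.4% of all. The T-box half-site and the E-box share the letters AGGTG, but no match of one lay inside a match of the other in the 4 windows shown. These motifs were settled on after a larger set had been searched in the same windows, and a match describes letters only.

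Cd3g encodes the CD3 gamma chain. Its log2 signal was 6.76, 6.43 and 6.52 on wild-type replicates 1, 2 and 4, and 5.43, 5.72 and 6.35 on transgenic replicates 1, 3 and 4. Transgenic replicates 1 and 3 were lower, at only 1.22 and 1.33 times the background threshold, while replicate 4 lay 0.076 under the lowest wild-type array. No Cd3g spot was more than 2.34 times that threshold. The group means were 6.57 ± 0.17 and 5.83 ± 0.47 (SD, n = 3 each), a difference of -0.74 ± 0.29 (SE), or 1.67-fold, with a 95% interval of -1.43 to -0.04. The limma p was 0.041 before and 0.69 after adjustment over all features, and the exact two-sided permutation p was 0.1, which is as small as 6 arrays in these groups can give. Raw signals overlapped, at 65.5, 75.0 and 97.2 in wild-type and 46.55, 65.7 and 108 in transgenic livers, so the groups separated only after normalization. No spot of Cd3g lay in a bright or dim area, and the difference stayed below 0 in all 17 other ways of processing, from -0.98 without transgenic replicate 4 to -0.54 without transgenic replicate 1. Many of these could not change its sign, since all transgenic values lay below all wild-type values.

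Cd3d, the delta chain, varied far more among the transgenic livers than between groups. It read 7.61, 8.15 and 7.83 in wild-type livers and 8.44, 7.61 and 6.25 in transgenic replicates 1, 3 and 4. The highest and the lowest of the 6 values were thus both transgenic. The difference of means was -0.43 ± 0.55 (SE, limma adjusted p = 0.83), and it was 0.16 without transgenic replicate 4. The low spot of that array lay in an area where neighbouring spots were bright by 1.08, and would read 5.17 relative to its neighbours.

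Cd3e, the epsilon chain, was at the edge of detection. It read 3.87, 3.53 and 3.88 in wild-type livers and 3.55, 4.72 and 6.04 in transgenic ones, and only the last value, of transgenic replicate 4, was above background. The spots around that one were bright by 0.58. The difference of 1.01 ± 0.61 (SE, limma adjusted p = 0.71) was 0.37 without this array and 1.61 without transgenic replicate 1. No fold is given, since neither group as a whole was measured. On the array where Cd3d was lowest, Cd3e was thus highest, and over the 6 arrays these chains of 1 complex had a Pearson r of -0.95. Cd3d and Cd3g had an r of -0.33. Both are descriptions of 6 arrays, with Cd3e dim on 5 of them.

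Cd2, an adhesion receptor of lymphocytes that binds CD48 in the mouse, did not separate the groups. Its values were 7.43, 8.12 and 7.59 in wild-type and 7.98, 7.42 and 7.40 in transgenic livers, and the ranges overlapped. The means were 7.71 ± 0.36 and 7.60 ± 0.33 (SD, n = 3 each). The difference was -0.12 ± 0.28 (SE, limma adjusted p = 0.91), with a 95% interval of -0.80 to 0.57 that leaves either direction possible. Leaving out wild-type replicate 2, the highest, gave 0.09. The probe was bright enough to measure on every array, at 3.15 to 7.18 times the background threshold. Its profile followed that of Cd3d (r = 0.71 over 6 arrays) rather than that of Cd3g (r = -0.26).

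The B cell receptor pair gave opposite signs. Cd79a read 9.26, 9.13 and 8.94 in wild-type and 9.27, 10.47 and 9.28 in transgenic livers. Transgenic replicates 1 and 4 were level with the highest wild-type liver, above it by 0.0096 and a little more, and replicate 3 was alone at the top. The difference was 0.56 ± 0.37 (SE, limma adjusted p = 0.72, exact two-sided permutation p = 0.1). The high spot lay where neighbouring spots were bright by 1.54. Relative to its neighbours it read 8.93, and with that correction on all arrays the Cd79a difference was -0.06. Without transgenic replicate 3 it was 0.17.

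Cd79b read 7.27, 7.55 and 6.10 in wild-type and 6.59, 6.27 and 6.48 in transgenic livers. Wild-type replicates 1 and 2 were above every transgenic liver, and wild-type replicate 4 was below all of them. The difference was -0.52 ± 0.40 (SE, limma adjusted p = 0.74), and -0.96 without wild-type replicate 4. That spot lay among neighbours bright by 1.52, and the spot of transgenic replicate 3 among neighbours dim by 0.61. With the local correction the difference turned to 0.37. Across the 6 arrays Cd79a and Cd79b had an r of -0.29, with spots in uneven areas on 1 array for Cd79a and on 2 for Cd79b.

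Nkg7, the cytotoxic granule membrane protein, had the closest wild-type replicates of the 8 markers. It read 6.20, 6.18 and 6.16 in wild-type and 5.60, 5.35 and 5.94 in transgenic livers. All transgenic values lay below all wild-type values, the nearest by 0.23. The means were 6.18 ± 0.018 and 5.63 ± 0.30 (SD, n = 3 each), a difference of -0.56 ± 0.22 (SE), or 1.47-fold, with a 95% interval of -1.08 to -0.03. The limma p was 0.042 before and 0.69 after adjustment, and the exact two-sided permutation p was 0.1. The raw signals, 45.4, 63.3 and 75.7 against 52.3, 50.5 and 80.0, overlapped, so the groups separated only after normalization. Every spot was near the background threshold, at 1.38, 1.43 and 1.82 times it in wild-type and 1.37, 1.02 and 1.58 times in transgenic livers. No spot lay in a bright or dim area, yet with each array corrected by its local median the difference was -0.35. It was below 0 in all 17 other ways of processing, many of which could not change its sign. The profile of Nkg7 followed that of Cd3g (r = 0.89 over 6 arrays). Both genes had all transgenic values below all wild-type values on these arrays, which alone raises r.

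Gzma, which encodes granzyme A, exceeded background in 0 wild-type livers and in 1 transgenic liver, replicate 4. The values were 4.94, 4.60 and 5.31 in wild-type and 4.32, 4.34 and 5.65 in transgenic livers. Transgenic replicates 1 and 3 were the 2 lowest livers and replicate 4 the highest. The difference was -0.18 ± 0.42 (SE, limma adjusted p = 0.91) and -0.61 without transgenic replicate 4. Neither value has a measured group behind it, so no fold is given.

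**Figure D2:**
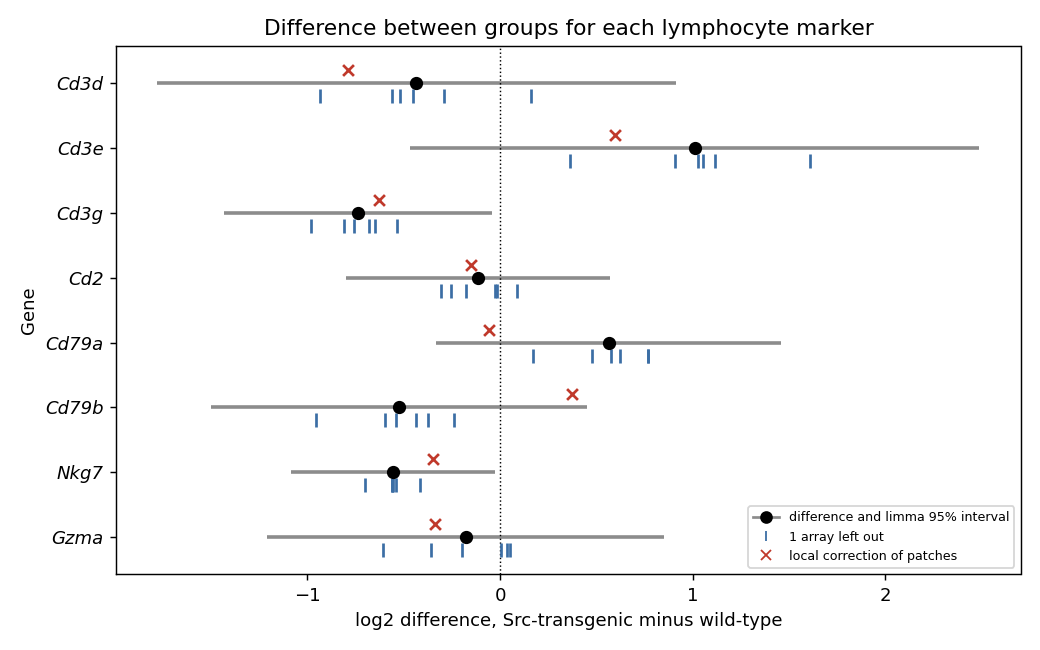
Log2 difference, Src-transgenic minus wild-type (horizontal axis), for each marker (vertical axis): the dot and bar are limma's estimate and 95% interval, blue ticks leave out 1 array each, and the red cross is the estimate after local correction. Only the intervals of Cd3g and Nkg7 lie left of 0, at -1.43 to -0.04 and -1.08 to -0.03, and the crosses of Cd79a (-0.06) and Cd79b (0.37) lie across 0 from their dots.

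The wider T cell list lay on both sides of 0. Of its 20 other measured genes, 7 were below 0 and the median difference was 0.10 against 0.02 over all features, or -0.003 against -0.08 under median scaling. At an unadjusted limma p under 0.05, 0 were lower and 1 was higher. That gene was Lef1, a transcription factor of naive T cells, at 0.48 ± 0.19 (SE). Lat, the adaptor downstream of the CD3 chains, was at 0.43 ± 0.18, and Il7r, the interleukin-7 receptor, at 0.42 ± 0.25. For each of these the lowest transgenic liver exceeded the highest wild-type one, and none passed adjustment (0.69, 0.69 and 0.70). After local correction they were at 0.29, 0.16 and 0.19, and Il7r was at 0.21 without transgenic replicate 3. The kinases Lck and Zap70, which act on the CD3 tails, gave -0.25 ± 0.22 and -0.09 ± 0.23, with overlapping groups. Those kinases are named because the receptor pathway runs through them, and they fall outside the rule for named genes.

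The 24 measured genes of antigen receptor signalling were likewise spread about 0, with 13 below it, a median of -0.05 and 0 at an unadjusted p under 0.05 either way. The median was 0.07 without wild-type replicate 1 and -0.16 without transgenic replicate 4. Besides Lat, the smallest p belonged to Nfatc1, a calcium-driven transcription factor, at 0.58 ± 0.26 (SE) and at 0.32 without wild-type replicate 1, and Blnk, the adaptor below the B cell receptor, at -1.41 ± 0.90. Blnk was above background on 1 array only, wild-type replicate 2, and was -0.33 without it.

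In the B and plasma cell list, 12 of 21 other measured genes were below 0, with a median of -0.11, or 0.0004 without wild-type replicate 2. At an unadjusted p under 0.05, 2 were higher and 0 lower, with 2 and 2 after local correction and 1 and 2 without transgenic replicate 4. Blk, a Src family kinase of B cells, was at 3.28, 3.39 and 3.48 in wild-type and 6.57, 6.03 and 4.95 in transgenic livers. In 2 transgenic and 0 wild-type livers it exceeded background, which makes it at least 1.22-fold higher, with an adjusted p of 0.69 by limma. That bound rests on transgenic replicate 1: without it the transgenic mean lay below the raised wild-type value by a log2 difference of -0.07, so no bound remains. Fcer2a, the low-affinity IgE receptor CD23, was higher by 0.84 ± 0.30 (SE, adjusted p = 0.69) on all 3 transgenic arrays, and by 0.55 without wild-type replicate 1. Ms4a1, which encodes CD20, gave -1.88 ± 0.88 but was above background on 1 array of each group.

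The NK and cytotoxic list held genes on both sides of Nkg7. Of 20 other measured genes 9 were below 0, with a median of 0.19, or 0.01 without transgenic replicate 4 and 0.003 without wild-type replicate 1. At an unadjusted p under 0.05, 4 were higher and 2 lower, without transgenic replicate 4 these counts were 1 and 1, and under median scaling 2 and 3. Eomes, a transcription factor that NK cells need, was higher by 0.65 ± 0.23 (SE), Il2rb, a chain shared by the interleukin-2 and interleukin-15 receptors, by 0.54 ± 0.19, and the NK receptor Klre1 by 0.76 ± 0.28. Each was higher in every transgenic liver than in any wild-type one, with a limma adjusted p of 0.69. Eomes was at 0.26 without transgenic replicate 4, and Il2rb at 0.24 after local correction. The fourth, Klrc2, was above background on 3 transgenic and 0 wild-type arrays (limma adjusted p = 0.69). By the bound it was at least 1.18-fold higher, or 1.11-fold without transgenic replicate 3. Its 5.46 on wild-type replicate 1 did not pass there, yet lay over the lowest passing signal of each transgenic array (5.15, 5.31 and 5.33). The count of 3 against 0 thus depends partly on array brightness. The 2 lower genes were Gzmk (-0.79 ± 0.26), a granzyme that was above background on no array, and Ctsw (-0.66 ± 0.24), a cathepsin above it on 1 wild-type array. Klrc2, Gzmk and Ctsw were named after their values were seen.

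**Figure D3:**
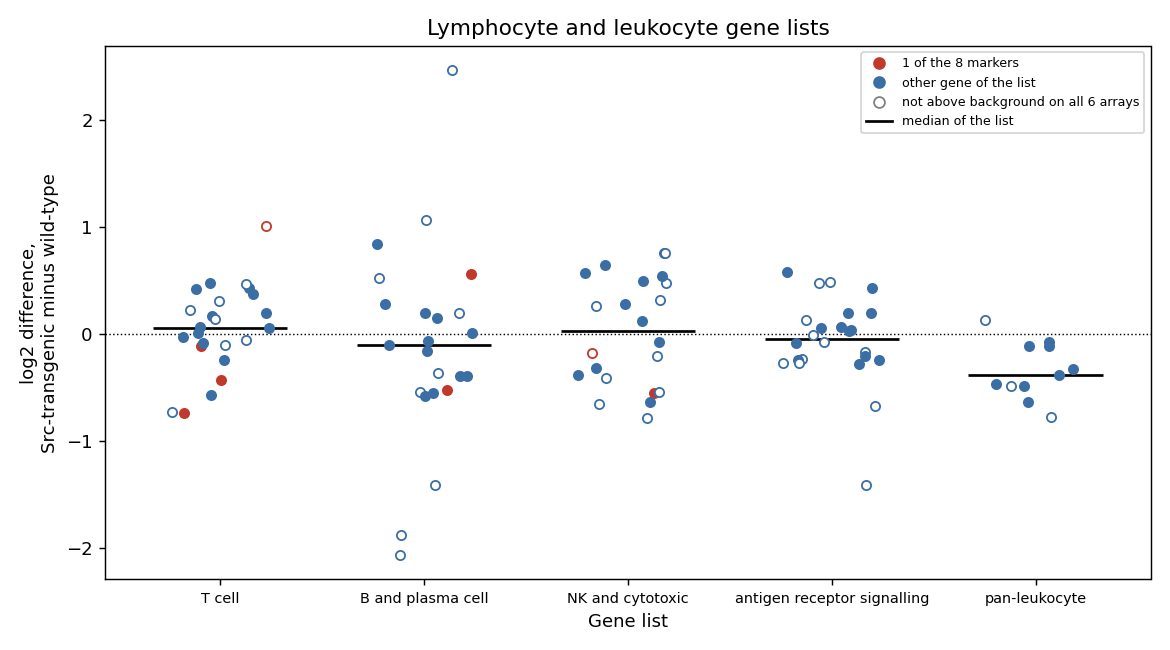
Log2 difference, Src-transgenic minus wild-type (vertical axis), of every measured gene in 5 lists (horizontal axis), with the 8 markers in red, other genes in blue, open symbols for genes not above background on all 6 arrays and a bar at the median of each list, markers included. The T cell and NK lists are spread on both sides of 0, while 10 of 11 pan-leukocyte genes lie under it, against 48.3% of all features.

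Genes that all white blood cells carry lay mostly below 0. Of 11 measured pan-leukocyte genes, 10 were below 0, against 48.3% of all features, with a median of -0.38. The exception was Ptprc at 0.13, above background on 2 transgenic and 0 wild-type arrays. Wild-type replicates 1 and 2 needed a higher normalized signal to pass than any transgenic array. Of the 8 above background on all arrays, 8 were below 0, against 49.1% of such features. At an unadjusted p under 0.05, 1 was lower, the actin-bundling Lcp1, which was above background on no array, and 0 were higher. Arhgdib was at -0.48 ± 0.26 (SE), the tetraspanin Cd53 at -0.63 ± 0.35 and the GTPase Rac2 at -0.38 ± 0.27, with limma adjusted p of 0.70, 0.70 and 0.73 and overlapping groups. Cd53 lay in an uneven area on 3 arrays and was at -0.02 after local correction. Rac2 was at -0.18 after that correction and at -0.14 without wild-type replicate 1, and Arhgdib at -0.32 without transgenic replicate 1. The list's median was -0.16 after local correction, -0.22 without wild-type replicate 1 and -0.09 with the replicate block. Without transgenic replicate 4 all 11 were below 0, 3 of them at an unadjusted p under 0.05.

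**Figure D4:**
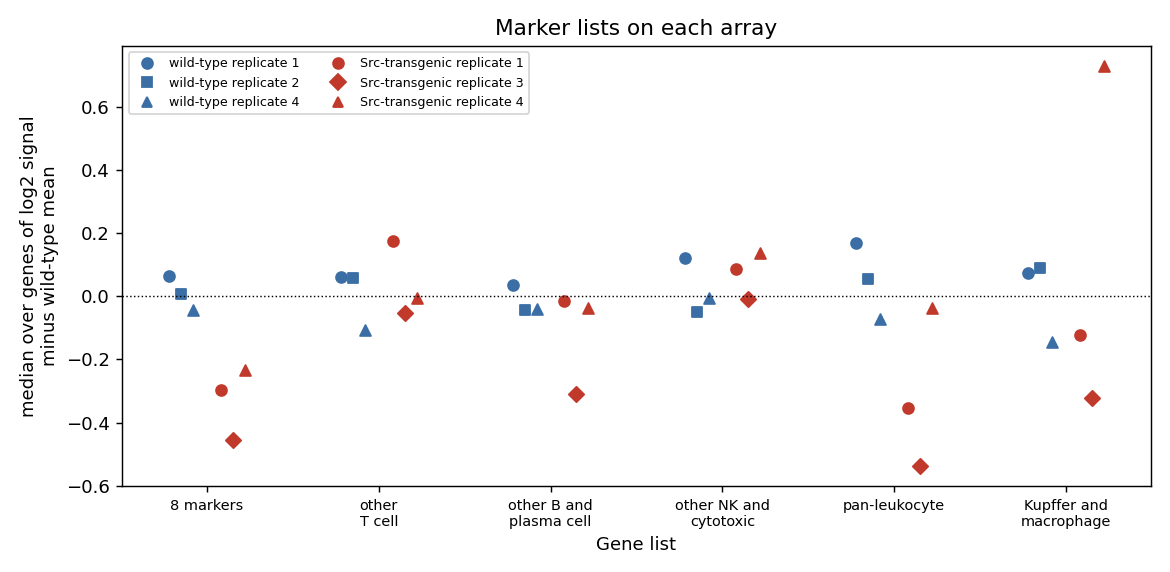
Median over the genes of a list of the log2 signal minus its wild-type mean (vertical axis), for 6 lists, the 8 markers being left out of the others (horizontal axis), 1 point per liver. The 8 markers lie at -0.30, -0.45 and -0.23 on transgenic replicates 1, 3 and 4, the pan-leukocyte genes at -0.35, -0.54 and -0.04, and the Kupffer and macrophage genes at 0.73 on transgenic replicate 4 alone.

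On each array the 8 markers together had a median deviation from the wild-type mean of 0.06, 0.01 and -0.04 in wild-type and -0.30, -0.45 and -0.23 in transgenic livers. The wild-type livers set that mean, so they lie near 0 by construction, and the 8 genes include Cd3e and Gzma, each above background on 1 array only. By the median deviation all 3 transgenic livers lay below all wild-type livers. By the mean deviation of the same 8 genes they did not, at 0.03, 0.07 and -0.10 against -0.24, -0.15 and 0.03, and no test was run on either. The pan-leukocyte genes gave 0.17, 0.05 and -0.07 against -0.35, -0.54 and -0.04, so transgenic replicate 4 was inside the wild-type range. The other T cell genes gave 0.06, 0.06 and -0.11 against 0.17, -0.05 and -0.01, with overlap.

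Macrophage markers were high in 1 transgenic liver. All 8 of 8 measured Kupffer and macrophage genes were above background on all arrays. Between groups 2 of them were below 0, and 0 had an unadjusted limma p under 0.05. Their summed signal was 7106 to 8368 in wild-type livers and 6936, 6472 and 12753 in transgenic replicates 1, 3 and 4. Lyz2, a lysozyme of myeloid cells, was at 0.66 ± 0.58 (SE) between groups, C1qc, a complement subunit, at -0.22 ± 0.30, and Vsig4, a Kupffer cell receptor, at 0.24 ± 0.33. Without transgenic replicate 4 they were at 0.24, -0.53 and -0.09, and Lyz2 was at 0.13 without wild-type replicate 2. Transgenic replicate 4 was also where Cd3e and Gzma were highest, Cd3g and Nkg7 nearest to wild-type, and Cd3d lowest. The part of these cells, and of the missing Y-linked signal, in those values was not tested. Without that array, Cd3g was at -0.98 and Nkg7 at -0.70, and the macrophage list had a median of -0.28 in place of 0.06 (-0.10 with all arrays under median scaling).

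Neutrophil markers gave a median of -0.04 (6 of 11 below 0), endothelial markers -0.16 (7 of 9), cholangiocyte markers 0.08 (3 of 6), hepatocyte markers 0.06 (2 of 8) and erythroid markers 0.19 (2 of 4), with 0 genes in these lists at an unadjusted limma p under 0.05. The sign of 4 of these medians depended on the processing: the neutrophil median was 0.24 without wild-type replicate 4, the cholangiocyte median -0.08 without transgenic replicate 1, and the hepatocyte and erythroid medians -0.62 and -0.06 under median scaling. Under that scaling 6 of 8 hepatocyte genes were below 0, with 1 lower at an unadjusted p under 0.05. Hepatocyte genes are among the brightest probes, whose values quantile normalization makes alike on all arrays. The neutrophil collagenase Mmp8 was at 0.41 ± 0.20 (SE), and at 0.33 to 0.53 with single arrays left out. Of the cholangiocyte list, Cldn4 was at 0.52 ± 0.23, and at 0.35 without transgenic replicate 4. Krt7, a bile duct keratin, was at 0.88 ± 0.41, and at 0.42 without transgenic replicate 3. The 3 genes of that list below 0 were Krt19 (-0.22), Epcam (-0.29) and Spp1 (-0.14), which fall outside the rule for named genes. The hepatocyte factor Hnf4a was at 0.45 ± 0.21, and at 0.005 after local correction.

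The mean profile of the 6 markers above background on all arrays was compared with 9610 other named genes that were as well. The closest were Dcakd (r = 0.99), Eef1akmt1 (0.98), Cog6 (0.97), Tff3 (0.97) and Rmnd1 (0.97), over 6 arrays that also differ in brightness and group. Of the 9610 genes, 134 had an r over 0.9, and 0 of the 52 other lymphocyte and leukocyte genes among them did. The median r was 0.08 for those 52 genes and 0.16 for all candidates. The mean profile joins genes that did not move alike, such as Cd79a and Nkg7, which had an r of -0.82 with each other.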

How the data were processed

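Total RNA of 6 livers was measured on 1-colour arrays, with biotin-labelled cRNA detected by Alexa-647 streptavidin per the labels. Per the file headers, the deposited intensity of a spot was a background-corrected linear signal, and a second intensity column was that signal scaled per array. The authors' value table equalled that second column for all 34967 mouse probes (tolerance 1e-06). The image software is not named in those sources.

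The 620 control spots were left out of the tests. Signals were raised to the 1st percentile of positive signals (4.72 to 5.75), log2-transformed and quantile normalized. Accessions named 14763 probes to 13971 genes through the RefSeq table (GRCm38.p6), 20204 probes stayed unnamed, and the brightest probe of a gene was used. The fit across 34175 features used lmFit and eBayes of limma 3.58.1 (R 4.3.3), with two-sided p-values adjusted by Benjamini-Hochberg. Titles number transgenic samples by mouse and wild-type samples by control; if controls shared an animal, p-values would measure a partly technical spread.

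A spot counted as above background if it was more than 3 scaled median absolute deviations over the median of 570 control spots, 33.0 to 50.6 by array. A bright or dim area is one where the median deviation of spots within 4 rows and columns exceeded 0.5 either way. Local correction subtracts that median from every spot. A bound ("at least") sets the bright group's mean against the dim group's mean of, per array, its own value or, if higher, the lowest signal that passes background. After normalization that lowest signal was 5.71, 5.65 and 5.32 on wild-type replicates 1, 2 and 4. It was 5.15, 5.31 and 5.33 on transgenic replicates 1, 3 and 4, so counts of arrays above background compare unlike limits.

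The markers, lists and thresholds were chosen with earlier results of these data known. Besides the markers, Src, Mt1 and Mt2, the rule named up to 3 genes per list with the smallest p among those above background on at least 1 array, and the 5 genes most like the mean marker profile. Exceptions are named as such. The steps were tested on simulated data. Alternatives were other scalings, floors, probe rules, filters and spread models, corrections for uneven areas, a replicate block, and each array left out. Figures were drawn with matplotlib 3.10.9.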

Additional observations from a re-analysis of the deposited data

How the results depend on the processing

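Of 17 alternatives, Cd3g and Nkg7 were below 0 in all 17, with an unadjusted limma p under 0.05 in 10 and 9 of them and a smallest adjusted p of 0.57. Much of this was fixed in advance. The probe rules, the filters and the trended prior left their differences at -0.74 and -0.56. Leaving out single arrays or adding the block could not turn the sign, since all transgenic values lay below all wild-type values. Features passing adjustment numbered 1 with every probe tested separately and 0 to 1 when single arrays were left out (1 without wild-type replicate 1 and 1 without transgenic replicate 4), and none was a marker. The markers' median was -0.48 among probes above background on all 6 arrays, which leaves out Cd3e and Gzma. Markers with an unadjusted p under 0.05 numbered 1 with a trended prior, 0 with local correction and 0 to 2 when single arrays were left out. These last were Cd3g and Nkg7 without transgenic replicate 4, and Cd79b, lower, without wild-type replicate 4. Without transgenic replicate 1 it was Cd3e, higher by 1.61. With local correction Cd79a was at -0.056 and Cd79b at 0.37. Leaving out single arrays gave Cd3d -0.94 to 0.16, Cd2 -0.31 to 0.088 and Gzma -0.61 to 0.049, and the markers' median -0.42 to -0.22. The causes were not tested. Median scaling moved the median of all features from 0.02 to -0.08 and the features with an unadjusted p under 0.05 from 1493 higher and 931 lower to 943 and 1311. Replicate numbers 1 and 4 occur in both groups, and deviations of same-numbered arrays correlated at 0.060 and 0.058, so the numbers were not taken to pair mice. With the replicate number as a block, only replicates 1 and 4 inform the difference, since 2 and 3 each occur in 1 group. In that fit the markers' median was -0.15, 0 markers had an unadjusted p under 0.05, and Cd2 was at 0.18. At that level 679 features were higher and 669 lower. The block and the loss of arrays cannot be told apart in these shifts. With 3 arrays a group precision is low throughout, and Cd3e and Gzma were above background on 1 array only.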
